A study of Mus musculus with 6 samples.

Results

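The genes described here encode proteins of the extracellular matrix and of its remodelling in primary mouse keratinocytes, the epithelial cells that build the epidermis. The 44 members were chosen by symbol and sorted by role into fibrillar collagens, other interstitial collagens, basement membrane, microfibrils and elastic fibres, wound matrix, collagen folding and crosslinking, and plasminogen activation. All 44 were found among the 55416 genes of the count table, and 39 had enough counts to be tested. The other 5, Col3a1, Nid2, Fbn2, Mfap2 and Mfap5, had at most 22 counts in any library.

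RNA was sequenced from 3 libraries of Cebpb knockout keratinocytes (numbered 4, 5 and 6) and 3 of wild type keratinocytes (1, 2 and 3). Both came from skin of C57BL/6J:129 hybrid pups 1 to 2 days old, were grown in 0.05 mM calcium with human EGF and bovine pituitary extract, and were irradiated 5 days after plating. The UVB dose was 10 mJ/cm2 (312 nm lamp), and RNA was taken 8 h after it. No unirradiated libraries were analysed, so all values are differences between genotypes after UVB. The product of Cebpb, C/EBPβ, is a DNA-binding regulator of transcription, and the labels do not name its knockout allele or say whether libraries came from separate animals. P-values therefore measure the spread between these libraries, which may be technical.

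Keratinocytes rest on a basement membrane, a sheet of collagen IV and laminin networks joined by nidogens and heparan sulphate proteoglycans, which they help to make. The fibrillar collagens of the dermis below are made mainly by fibroblasts. After wounding, keratinocytes migrate over a provisional matrix rich in fibronectin and tenascin-C, and urokinase, a protease that turns plasminogen into plasmin, helps to clear fibrin from their path.

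Libraries held 81256192 to 92987497 counts in knockout cells and 107757415 to 122797031 in wild type cells. Levels are given as CPM, counts over library size after TMM scaling, and 3 counts in a library correspond to at most 0.0349 CPM. Cebpb stood at 0.942 ± 0.143 CPM in knockout cells and 145 ± 21.9 CPM in wild type cells (SD, n = 3 each). Transcripts of 4 Y-linked genes summed to 0.129 ± 0.0284 CPM in knockout and 64.4 ± 3.71 CPM in wild type cells, and Xist, made by female cells, stood at 587 ± 18.3 CPM in knockout and 402 ± 14.0 CPM in wild type cells. Wild type libraries thus held both Xist and Y-linked RNA, and knockout libraries almost only Xist. Sex composition and genotype cannot be told apart here, although no member lies on X or Y. Summed keratinocyte markers stood at 24535 ± 434 CPM in knockout and 40375 ± 2727 CPM in wild type cells. Krt5 and Krt14 made up most of both sums, and the 10 markers did not move together: 2 rose, 7 fell and 1 was not called. Their part in the results was not tested. In bulk samples, fewer cells of a type and less RNA per cell cannot be told apart.

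Matrix genes were more often higher than lower in knockout cells, with large rises in wound matrix, collagen IV and urokinase genes and few counts from fibrillar collagen genes in either genotype. Of the 39 tested members, 22 rose, 5 fell and 12 were not called by edgeR's quasi-likelihood test, at a Benjamini-Hochberg adjusted p under 0.05. Over all 17659 genes tested, 48.6% were called, 24.8% higher and 23.7% lower. The members were chosen with earlier results of these data known, so these shares describe the list and do not test it. The stricter call, which adds a change of at least 1 log2 unit, took 14 members higher and 2 lower, against 8.56% and 5.94% of all genes. The median log2 fold change (knockout over wild type throughout) was 0.49 over the tested members and 0.01 over all tested genes. Every knockout library lay above every wild type library in 24 members and below in 7, and over all tested genes this held for 28.7% and 27.6%. Together the 44 members took 0.751% to 0.807% of the counts of knockout libraries and 0.335% to 0.372% of wild type libraries. Scaling by library totals in place of TMM moved the median of all genes up to 0.21 and gave 24 members higher and 2 lower, with 6478 genes in all called higher and 2452 lower, against 4387 and 4192 with TMM.

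**Figure D1:**
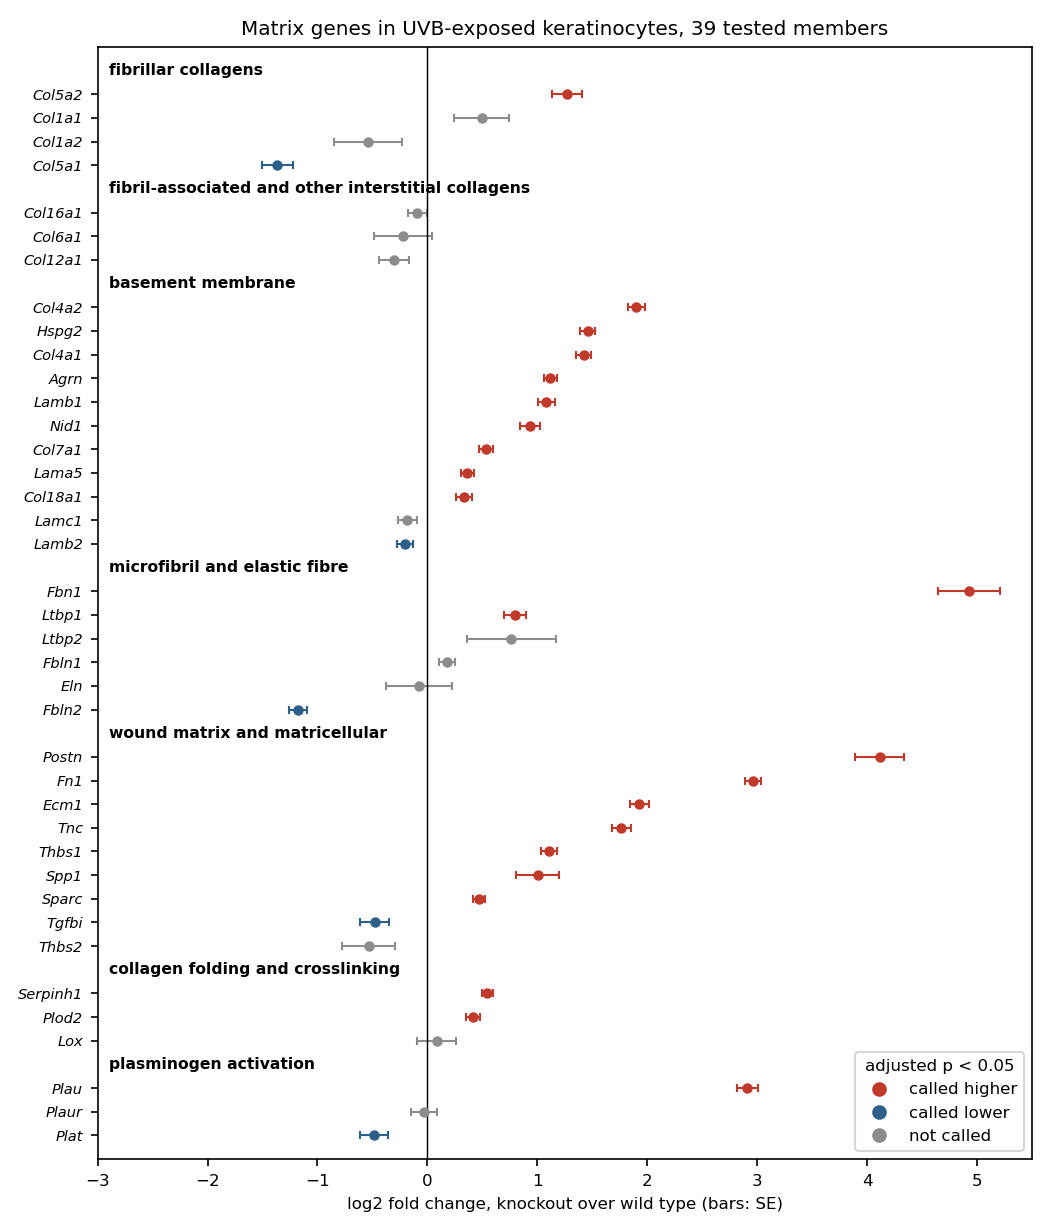
Log2 fold change, knockout over wild type, of the 39 tested members by role, with the standard error as a bar. Red points were called higher, blue points lower and grey points were not called; basement membrane and wound matrix genes lie mostly to the right of 0, with Fbn1 (4.93) and Postn (4.11) farthest out.

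Wound matrix and matricellular genes, which encode proteins laid down during repair, had 7 of 9 members higher, while 1 was lower and 1 was not called. Their median log2 fold change was 1.10. Fn1 (ENSMUSG00000026193) encodes fibronectin, the main adhesive protein of the provisional matrix. It had 847, 847 and 975 CPM in the knockout libraries, against 122, 107 and 114 CPM in the wild type libraries. The lowest knockout library lay far above the highest wild type library, and Fn1 rose 7.81-fold (2.97 ± 0.07 log2 units, SE, edgeR adjusted p = 5.14e-14). Postn (ENSMUSG00000027750), which encodes periostin, a matricellular protein of connective tissue and healing skin, had 11.6, 12.5 and 16.0 CPM in knockout and 0.493, 0.740 and 1.09 CPM in wild type libraries. It was scarce in wild type cells, with 55 to 109 counts, and rose 17.3-fold (4.11 ± 0.22, edgeR adjusted p = 9.14e-10).

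Ecm1 (ENSMUSG00000028108) encodes a secreted glycoprotein of skin that binds matrix proteins. It stood at 434, 439 and 383 CPM in knockout libraries, against 125, 108 and 97.2 CPM in wild type libraries, and rose by 1.93 log2 units (edgeR adjusted p = 3.22e-11). Tnc, which encodes tenascin-C, had 162, 148 and 181 CPM in knockout and 53.4, 43.99 and 46.8 CPM in wild type libraries. Groups did not overlap in either gene, and Tnc rose by 1.76 log2 units (edgeR adjusted p = 7.47e-11). Thbs1, which encodes thrombospondin-1, an activator of latent TGF-beta, rose by 1.10, to 526 ± 53.2 CPM in knockout cells, against 245 ± 17.6 CPM in wild type cells. Its paralogue Thbs2 stood at 0.924 ± 0.128 and 1.34 ± 0.290 CPM in knockout and wild type cells and was not called (-0.54, edgeR adjusted p = 0.075), but leaving out wild type replicate 1 made it a call (-0.68, edgeR adjusted p = 0.0341).

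Spp1, which encodes osteopontin, a secreted ligand of integrins, was scarce. It stood at 2.76 ± 0.593 CPM in knockout and 1.38 ± 0.101 CPM in wild type cells, and rose by 1.00 (edgeR adjusted p = 4.27e-04). Gm42793, which shares 18.8% of the Spp1 exons on the same strand, had 0 counts in every library. This does not show that Spp1 counts hold none of its reads. Sparc, a collagen-binding glycoprotein gene, varied least between libraries of a genotype. It had 120, 122 and 123 CPM in knockout and 88.8, 87.0 and 87.4 CPM in wild type libraries, a rise of 0.47 (edgeR adjusted p = 3.58e-06). Tgfbi, which encodes a TGF-beta-induced integrin ligand, was the member of this role that fell, with 6.17 ± 1.02 CPM in knockout and 8.61 ± 0.697 CPM in wild type cells (-0.48, edgeR adjusted p = 0.00738). With library totals the Tgfbi call was lost (-0.28, edgeR adjusted p = 0.0989).

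**Figure D2:**
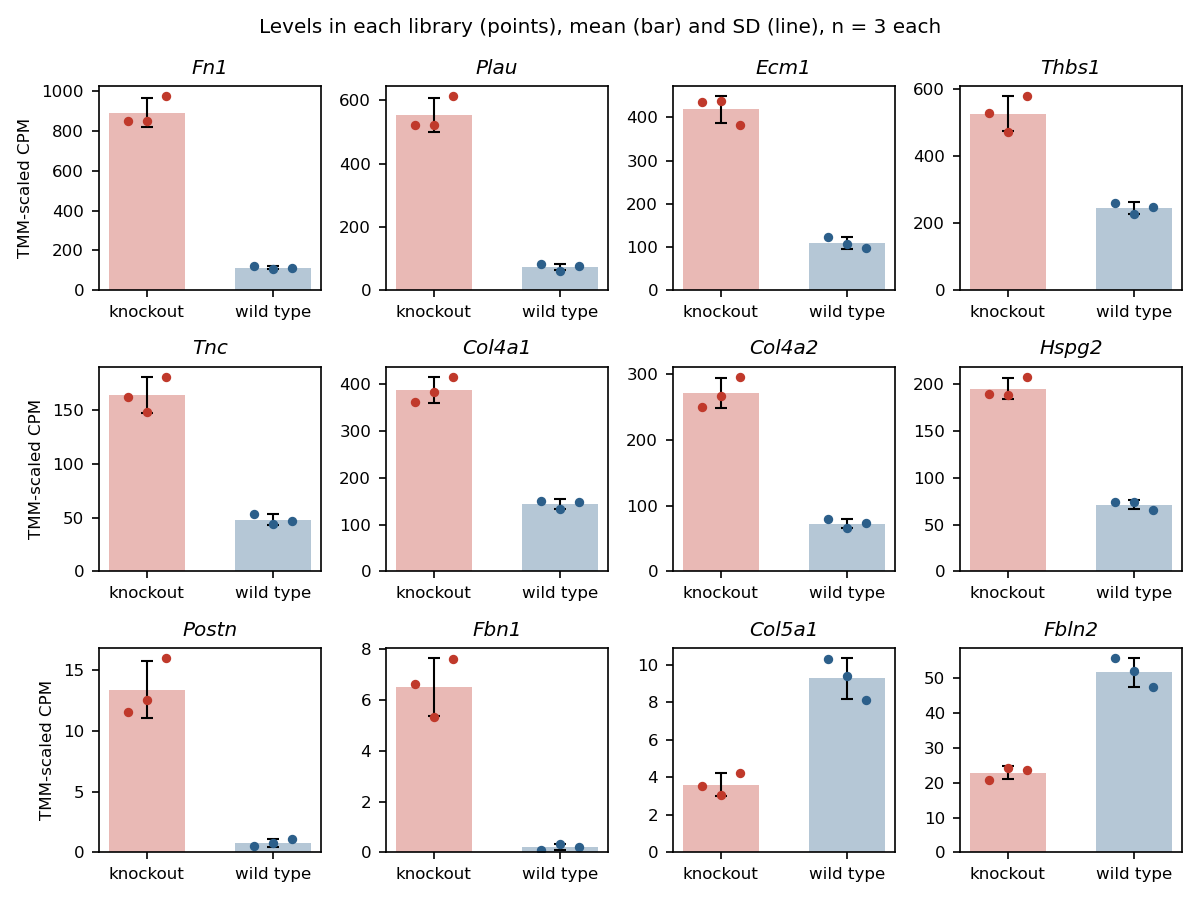
TMM-scaled CPM of 12 members in each library (points), with the mean (bar) and SD (line) of 3 knockout and 3 wild type libraries. The knockout points lie above all wild type points in 10 panels and below them in the panels of Col5a1 and Fbln2.

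Basement membrane genes had 9 of 12 members higher, 1 lower, 1 not called and 1, Nid2, not tested, and the median of those tested was 0.94. Their summed level was 3713 ± 207 CPM in knockout and 2396 ± 167 CPM in wild type cells. Among them Col4a2, Hspg2 and Col4a1 had the highest log2 fold changes. Col4a1 (ENSMUSG00000031502) had 361, 384 and 416 CPM in knockout and 151, 132 and 149 CPM in wild type libraries, a rise of 1.42 ± 0.07 log2 units (edgeR adjusted p = 8.49e-11). Col4a2 (ENSMUSG00000031503) had 250.5, 268 and 296 CPM in knockout and 79.6, 65.5 and 73.2 CPM in wild type libraries, a rise of 1.90 ± 0.08 (edgeR adjusted p = 1.48e-11). These genes encode the chains of the common collagen IV trimer and lie head to head in the genome, with 22 exonic bases shared between opposite strands in the GENCODE M21 annotation. The minor-chain genes Col4a3 and Col4a4 also rose, to 4.51 ± 0.791 and 8.03 ± 1.31 CPM in knockout cells, against 1.75 ± 0.192 and 4.22 ± 0.859 CPM in wild type cells. Col4a6 fell by 0.92, and Col4a5, at 52.2 ± 3.55 CPM in knockout and 57.05 ± 6.72 CPM in wild type cells, was not called (edgeR adjusted p = 0.235). Names of these minor chains were chosen after their values were seen.

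The heparan sulphate proteoglycan genes rose together. Hspg2, which encodes perlecan, had 189, 189 and 208 CPM in knockout and 74.3, 73.7 and 65.5 CPM in wild type libraries, a rise of 1.46 (edgeR adjusted p = 5e-11). Agrn, which encodes agrin, rose by 1.12, to 346 ± 9.77 CPM in knockout cells, against 159 ± 11.4 CPM in wild type cells. Col18a1, whose collagen XVIII carries heparan sulphate chains and releases endostatin, was the most abundant member by CPM and changed least of those that rose. It had 1492, 1581 and 1755 CPM in knockout and 1393, 1224 and 1218 CPM in wild type libraries, a rise of 0.33 ± 0.07 (edgeR adjusted p = 8.08e-04).

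Laminin chain genes did not move together. Lamb1, which encodes the laminin beta1 chain, had 128, 128 and 146 CPM in knockout and 70.0, 60.4 and 59.6 CPM in wild type libraries, a rise of 1.08 (edgeR adjusted p = 7.63e-09). Lama5, the gene of the alpha5 chain, rose by 0.36, to 346 ± 7.05 CPM in knockout cells, against 269 ± 16.9 CPM in wild type cells. Lamb2, the gene of the beta2 chain, had 62.2 ± 3.82 CPM in knockout and 71.7 ± 5.79 CPM in wild type cells and fell by 0.20 (edgeR adjusted p = 0.0293). That call was lost with library totals (-0.005) and without knockout replicate 4 or 6 or wild type replicate 1 (edgeR adjusted p = 0.0534, 0.135 and 0.123). Lamc1, the gene of the gamma1 chain that pairs with them, had 49.4, 48.9 and 56.5 CPM in knockout and 66.7, 54.5 and 54.6 CPM in wild type libraries. Its groups overlapped and it was not called (-0.18, edgeR adjusted p = 0.0903), but became a call with every gene kept (-0.19, edgeR adjusted p = 0.0437) or once knockout replicate 6 was left out (-0.25, edgeR adjusted p = 0.0415). Nid1, whose nidogen-1 links laminin to collagen IV, rose by 0.94, to 35.2 ± 0.751 CPM in knockout cells, against 18.4 ± 2.26 CPM in wild type cells. Nid2 had 8, 22 and 4 counts in knockout and 2, 13 and 0 counts in wild type libraries. Col7a1, the gene of the anchoring fibrils that tie this membrane to the dermis, rose by 0.53, to 274 ± 12.9 CPM in knockout cells, against 189 ± 13.1 CPM in wild type cells.

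Microfibril and elastic fibre genes had 2 of 9 members higher, 1 lower, 3 not called and 3 not tested, with a median of 0.47. Fbn1 (ENSMUSG00000027204) encodes fibrillin-1, the backbone of microfibrils. It had 631, 529 and 655 counts in knockout libraries, against 11, 39 and 20 counts in wild type libraries. In CPM these were 6.63, 5.34 and 7.62, against 0.0986, 0.335 and 0.201, with no overlap. Fbn1 rose 30.5-fold (4.93 ± 0.28 log2 units, edgeR adjusted p = 7.62e-10), and its wild type counts were close to the minimum for testing. The gene entered the test through its knockout counts. The coefficient of variation of its wild type CPM was 56.2%, so the size of the rise is uncertain. Leaving out each library gave 4.58 to 5.46 log2 units. An opposite-strand gene, Gm9913, shares 20.1% of the Fbn1 exons and had 0 counts in every library. The strand setting was not given, so this does not show that Fbn1 counts hold none of its reads. Ltbp1, which encodes a protein that holds latent TGF-beta in the matrix, rose by 0.79, to 30.5 ± 3.62 CPM in knockout cells, against 17.6 ± 1.62 CPM in wild type cells.

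Fbln2, which encodes fibulin-2, a ligand of fibronectin and nidogen, went the other way. It had 20.8, 24.2 and 23.6 CPM in knockout and 55.7, 51.9 and 47.4 CPM in wild type libraries, and fell by 1.18 ± 0.08 log2 units (edgeR adjusted p = 9.23e-09). Its relative Fbln1 overlapped between groups, at 40.8 ± 1.60 CPM in knockout and 36.1 ± 2.75 CPM in wild type cells, and was not called (0.18, edgeR adjusted p = 0.0658). It was called higher without wild type replicate 1 (0.24), among genes of at least 1 CPM (0.19) and with library totals (0.38). Eln, the elastin gene, stood at 0.509 ± 0.0408 CPM in knockout and 0.538 ± 0.0348 CPM in wild type cells, and Ltbp2 at 0.423 ± 0.0721 and 0.247 ± 0.0692 CPM; neither was called. Fbn2 had at most 6 and Mfap2 at most 4 counts in any library, while Mfap5 was at 0 in all libraries but knockout replicate 4, which had 7 counts.

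Fibrillar collagen genes were scarce in both genotypes. Of 5 members 1 rose, 1 fell, 2 were not called and Col3a1 was not tested, and the summed level was 12.7 ± 0.543 CPM in knockout and 14.0 ± 1.63 CPM in wild type cells. Col1a1, the major collagen I gene of fibroblasts, had 135, 129 and 114 counts in knockout and 141, 78 and 94 counts in wild type libraries. It was not called (0.49 ± 0.25, edgeR adjusted p = 0.116), but became a call with library totals (0.69, edgeR adjusted p = 0.0278) or once wild type replicate 1 was left out (0.74, edgeR adjusted p = 0.0264). Col1a2 had 64, 56 and 28 counts in knockout and 86, 88 and 75 counts in wild type libraries (-0.54 ± 0.31, edgeR adjusted p = 0.164). Col3a1 had 0, 1 and 0 counts in knockout and 6, 5 and 6 counts in wild type libraries. Reads of collagens I and III were thus few in every library.

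The collagen V genes among the members moved in opposite directions. Col5a1 had 3.52, 3.07 and 4.25 CPM in knockout and 10.3, 9.38 and 8.14 CPM in wild type libraries, and fell by 1.36 ± 0.15 log2 units (edgeR adjusted p = 9.87e-07). Col5a2 had 6.73, 7.56 and 7.46 CPM in knockout and 3.34, 3.05 and 2.60 CPM in wild type libraries, and rose by 1.27 ± 0.14 (edgeR adjusted p = 1.28e-06). Neither gene overlapped between groups. Col5a3, a collagen V gene outside the members, rose by 2.43 log2 units (edgeR adjusted p = 3.04e-07). It stood at 6.41 ± 0.780 CPM in knockout and 1.20 ± 0.498 CPM in wild type cells. The interstitial collagen genes Col6a1, Col12a1 and Col16a1 were not called. Col6a1, a gene of collagen VI, which forms beaded filaments around cells, stood at 0.782 ± 0.154 CPM in knockout and 0.915 ± 0.178 CPM in wild type cells (-0.22 ± 0.27). Col16a1, whose product joins fibrils and the junction zone below the epidermis, was the most abundant of them, at 28.1 ± 1.97 CPM in knockout and 29.9 ± 2.32 CPM in wild type cells (-0.09 ± 0.09). Col12a1, at 6.40 ± 0.623 CPM in knockout and 7.90 ± 1.19 CPM in wild type cells, was called lower by DESeq2 (-0.32, DESeq2 adjusted p = 0.0439), and by edgeR once wild type replicate 2 was left out (-0.38, edgeR adjusted p = 0.0463).

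The summed level of fibroblast markers was low and did not rise in knockout cells, although 1 marker did. The 15 markers summed to 25.01 to 28.3 CPM in knockout and 37.5 to 44.04 CPM in wild type libraries. Of 10 tested, 1 rose (Fap, to 0.211 ± 0.0107 CPM in knockout cells, against 0.0520 ± 0.0100 CPM in wild type cells), 4 fell and 5 were not called. Col14a1 and Mmp2, the most abundant, made up most of the sum in both genotypes. They fell by 0.65 and 0.40, and epithelial cells can express both. Lum was at 0 counts in every library, Prrx1 had at most 6 counts and Twist2 at most 8, and Pdgfra had 1.67 ± 0.0600 CPM in knockout and 3.17 ± 0.451 CPM in wild type cells. The part of fibroblasts in the matrix values was not tested.

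Markers of other cells were also read, beside 24.8% of all tested genes called higher and 23.7% lower. The 8 markers of melanocytes and glia summed to 609 to 692 CPM in knockout and 693 to 784 CPM in wild type libraries, led by Pmel (253 ± 19.6 and 285 ± 15.5 CPM) and Tyrp1 (198 ± 12.0 and 238 ± 16.0 CPM), so pigment cell transcripts were present in both genotypes. Of these 8 genes 1 was called higher and 4 lower. Endothelial markers summed to 5.95 to 6.87 CPM in knockout and 8.24 to 8.98 CPM in wild type libraries, with Cdh5 and Emcn at 0 counts in all libraries, Kdr at 4.77 ± 0.475 and 6.36 ± 0.312 CPM and Vwf at 0.668 ± 0.158 and 0.911 ± 0.331 CPM. Leukocyte markers summed to 2.34 to 2.48 CPM in knockout and 3.35 to 4.74 CPM in wild type libraries, with Ptprc at no more than 5 counts, Cd3e at 0, Csf1r at 2.35 ± 0.0339 and 3.22 ± 0.607 CPM and Laptm5 at 0.0379 ± 0.0478 and 0.340 ± 0.0603 CPM. Mural and muscle markers summed to 34.5 to 47.5 CPM in knockout and 36.3 to 55.8 CPM in wild type libraries. Of 5 tested in that list, 2 rose, 2 fell and 1 was not called. Acta2 fell by 0.99 and Tagln rose by 1.95, and both encode actin cytoskeleton proteins that epithelial cells can also make. Cspg4 fell by 0.71. Rgs5 rose by 2.30 from few counts, with 35, 10 and 14 in knockout and 5, 9 and 0 in wild type libraries. Rgs5 entered the test through its knockout counts. The part of mural cells in the matrix values was not tested. All 10 keratinocyte markers were detected in every library, led by Krt5 at 11536 ± 275 CPM in knockout and 19824 ± 1265 CPM in wild type cells (-0.78) and Krt14 at 7872 ± 351 and 14956 ± 1524 CPM (-0.93). Epcam, an epithelial adhesion gene, went the other way, at 1718 ± 142 CPM in knockout and 398 ± 29.95 CPM in wild type cells (2.11), and so did Itgb4, at 547 ± 29.4 and 382 ± 34.3 CPM (0.52). Cdh1, the E-cadherin gene, was not called, at 665 ± 28.5 CPM in knockout and 702 ± 24.9 CPM in wild type cells. Trp63 and Krt15 were the least abundant of the list, at 14.2 ± 1.97 and 5.64 ± 1.07 CPM in knockout cells, against 54.9 ± 4.24 and 9.69 ± 1.18 CPM in wild type cells, and both fell.

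**Figure D3:**
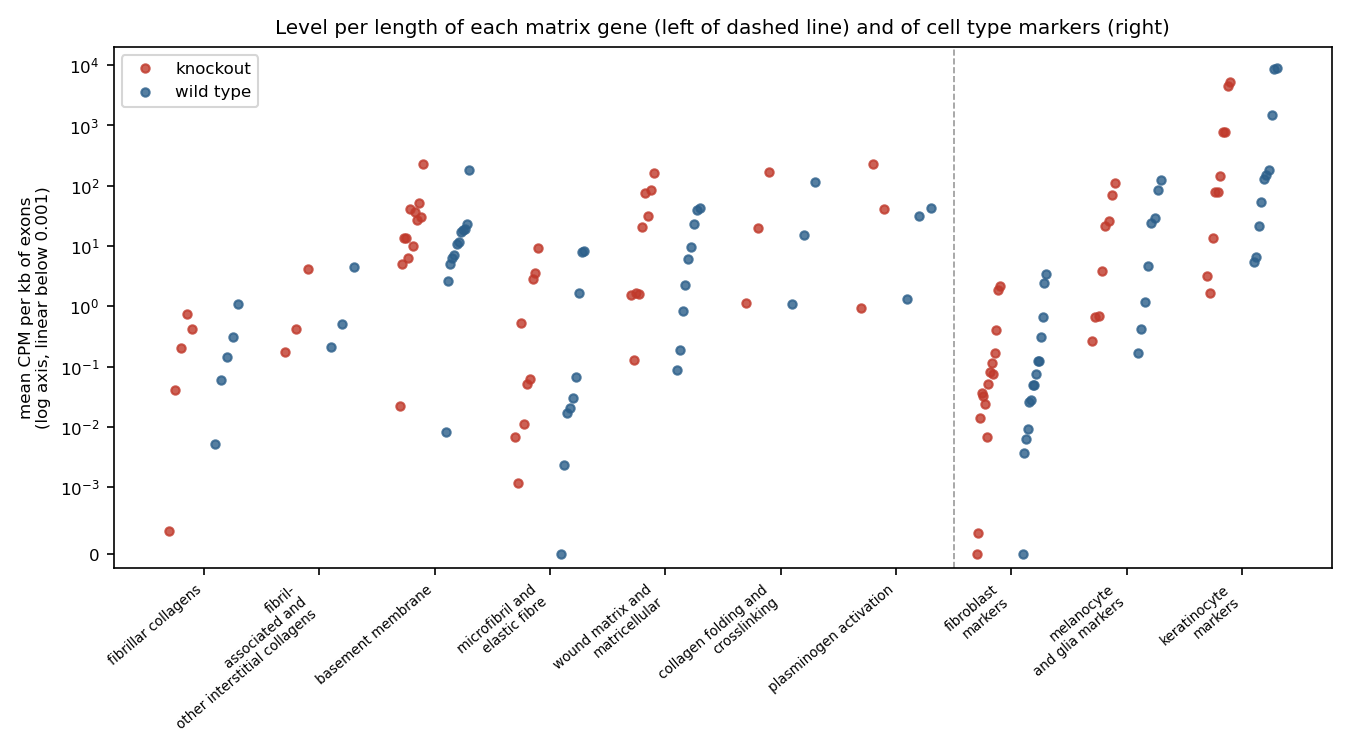
Mean CPM per kb of merged exons of each gene in knockout (red, left) and wild type cells (blue, right), on a log axis that is linear below 0.001, for the 7 roles and for 3 lists of cell type markers to the right of the dashed line. Fibrillar collagens and fibroblast markers lie below about 4 CPM per kb, and most basement membrane and wound matrix genes lie above them.

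Per kb of exon, the order of the matrix genes differed between genotypes. Plau had the highest mean level per kb in knockout cells (234 ± 22.3 CPM per kb) and ranked 6 of 44 in wild type cells (31.1 ± 4.21). Col18a1 ranked 2 in knockout cells (229 ± 19.0) and 1 in wild type cells (182 ± 14.2), and in knockout cells it and Plau differed by less than their SDs. Serpinh1 and Ecm1 followed in both genotypes, at 167 ± 3.74 and 166 ± 12.4 CPM per kb in knockout cells, again within their SDs, and at 114 ± 1.68 and 43.6 ± 5.45 in wild type cells. Ecm1, Plaur and Thbs1 held places 3 to 5 in wild type cells and lay within their SDs of each other there. Fn1 ranked 6 in knockout cells (76.2 ± 6.32) and 15 in wild type cells (9.75 ± 0.628). Collagen I genes stood at 0.205 ± 0.00939 (Col1a1) and 0.0419 ± 0.0143 (Col1a2) CPM per kb in knockout cells, against 0.146 ± 0.0452 and 0.0612 ± 0.000792 in wild type cells.

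Of the 3 members of collagen folding and crosslinking, 2 rose modestly and 1 was not called. Serpinh1, which encodes HSP47, the collagen chaperone of the endoplasmic reticulum, had 397, 409 and 415 CPM in knockout and 282, 281 and 274 CPM in wild type libraries, a rise of 0.55 ± 0.05 log2 units (edgeR adjusted p = 3.01e-07). Plod2, a lysyl hydroxylase gene that sets the type of collagen crosslinks, rose by 0.42, to 109.5 ± 5.05 CPM in knockout cells, against 82.1 ± 2.51 CPM in wild type cells. Lox, which encodes lysyl oxidase, the crosslinking enzyme of collagen and elastin, had 4.70, 5.05 and 6.85 CPM in knockout and 6.53, 4.86 and 4.22 CPM in wild type libraries. Its groups overlapped, and its log2 difference was 0.09 with an interval of 2 SEs from -0.27 to 0.44 (edgeR adjusted p = 0.722).

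Among plasminogen activation genes, urokinase rose alone. Plau (ENSMUSG00000021822) had 523, 523 and 614 CPM in knockout libraries, against 81.9, 62.5 and 76.3 CPM in wild type libraries. It rose 7.52-fold (2.91 ± 0.10 log2 units, edgeR adjusted p = 2.58e-11) and took 49781 to 52812 counts in each knockout library. Plat, the gene of tissue plasminogen activator, fell by 0.49, to 5.98 ± 0.225 CPM in knockout cells, against 8.40 ± 1.15 CPM in wild type cells (edgeR adjusted p = 0.00441), and with library totals this call was lost (-0.29, edgeR adjusted p = 0.0758). Plaur, the urokinase receptor gene, had 95.9, 107 and 121 CPM in knockout and 132, 95.7 and 104 CPM in wild type libraries. These overlapped, and its log2 difference was -0.03 with an interval of 2 SEs from -0.27 to 0.20 (edgeR adjusted p = 0.84).

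Of 10 further genes of the plasminogen system, 2 rose, 2 fell, 4 were not called and 2 were not tested. Over all tested genes 24.8% were called higher and 23.7% lower. Serpinb2, which encodes the urokinase inhibitor PAI-2, had 321, 341 and 424 CPM in knockout and 1516, 1413 and 1432 CPM in wild type libraries, and fell by 2.01 ± 0.09 log2 units (edgeR adjusted p = 6.89e-11). Anxa2, which encodes a plasminogen-binding protein of the cell surface, rose by 0.73, to 3323 ± 140.0 CPM in knockout cells, against 1998 ± 97.4 CPM in wild type cells. The knockout libraries were thus high in Plau and low in Serpinb2, with no overlap in either gene.

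**Figure D4:**
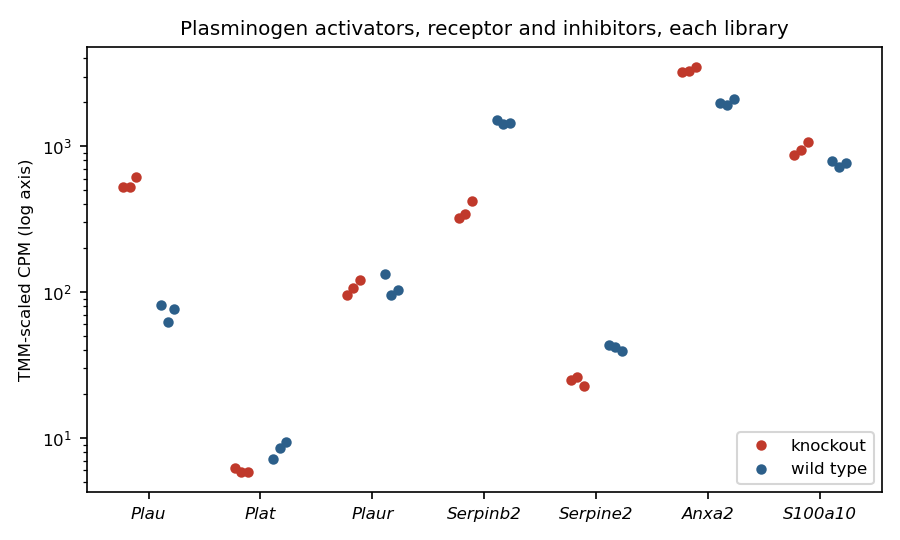
TMM-scaled CPM on a log axis of the plasminogen activators Plau and Plat, the receptor Plaur, the inhibitors Serpinb2 and Serpine2 and the surface binding proteins Anxa2 and S100a10, with 3 knockout (red) and 3 wild type (blue) libraries as points. Plau lies higher and Serpinb2 lower in all knockout libraries, and Plaur overlaps.

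Stretches before the start of 3 members are shown because they hold matches to the motifs searched and the genes behaved differently. They are the 250 bases 5′ of the start of Postn and Ecm1, which rose, and of Plaur, which was not called, from RefSeq on GRCm38.p6, an older assembly than the one of the counts. They lie at chr3:54360857-54361106 (plus strand), chr3:95739570-95739819 (minus strand) and chr7:24462233-24462482 (plus strand). Capitals mark matches on either strand to TTNNGCAA (a core of C/EBP sites), TGANTCA (AP-1) or TATAAA, and none of these overlap here.
Postn: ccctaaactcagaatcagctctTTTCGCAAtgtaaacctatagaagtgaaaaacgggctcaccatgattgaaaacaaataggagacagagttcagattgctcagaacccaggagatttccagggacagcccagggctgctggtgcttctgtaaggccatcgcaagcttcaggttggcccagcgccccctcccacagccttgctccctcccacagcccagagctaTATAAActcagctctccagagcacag
Ecm1: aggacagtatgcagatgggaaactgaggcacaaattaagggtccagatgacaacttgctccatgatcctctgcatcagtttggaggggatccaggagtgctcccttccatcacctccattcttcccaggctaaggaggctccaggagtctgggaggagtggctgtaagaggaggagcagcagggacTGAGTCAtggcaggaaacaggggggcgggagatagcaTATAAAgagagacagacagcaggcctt
Plaur: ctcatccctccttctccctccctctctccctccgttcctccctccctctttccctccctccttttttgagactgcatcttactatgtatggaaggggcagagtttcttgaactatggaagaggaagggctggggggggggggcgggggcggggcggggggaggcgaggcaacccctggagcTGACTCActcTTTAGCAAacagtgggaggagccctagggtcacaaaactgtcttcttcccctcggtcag

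The Postn stretch holds TTTCGCAA 228 bases and TATAAA 26 bases before the start. The Ecm1 stretch holds TGAGTCA at 64 and TATAAA at 27 bases, and the Plaur stretch TGACTCA at 69 and TTTAGCAA at 59 bases. A second Postn window, farther upstream, held none of the 3 motifs. Windows of 300 bases, reaching 50 bases past the start, were at hand for 30 of the 44 members (38 windows). TTNNGCAA was in 5 of these 38 windows, those of Mfap2, Nid1, Plaur, Postn and Spp1, and in 10.8% of 32851 windows of all genes. TGANTCA was in 3 of the 38 and 7.81% of all windows, and TATAAA in 7 of the 38 and 13.6% of all windows. These are matches of letters and were not tested as binding sites.

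Ratios of partner genes within a library do not depend on how libraries are scaled. All 6 ratios that could be formed differed between genotypes with no overlap, and 3 libraries against 3 cannot give an exact permutation p below 0.1, the value each ratio had (two-sided, 0.1 after Benjamini-Hochberg adjustment over the 6). Of all single genes tested, 28.7% had every knockout library above every wild type library and 27.6% below. No such share was computed for pairs of genes, and the ratios in part restate the changes of single genes given above. The Col5a1 to Col5a2 ratio was 0.523, 0.406 and 0.569 in knockout and 3.08, 3.07 and 3.14 in wild type libraries, so which transcript had more reads differed. The Col4a1 to Col4a2 ratio was 1.43 ± 0.0192 in knockout and 1.99 ± 0.0774 in wild type libraries. Counts of Lamb1 were 1.95 to 2.52 times those of Lamb2 in knockout and 0.858 to 0.897 times in wild type libraries.

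The Plau to Plat ratio was 83.8, 89.6 and 105 in knockout and 11.4, 7.27 and 8.08 in wild type libraries. The Thbs1 to Thbs2 ratio was 580.3 ± 121 in knockout and 189 ± 49.3 in wild type libraries, and the Col1a1 to Col1a2 ratio, from at most 141 counts a gene, 2.83 ± 1.08 and 1.26 ± 0.377. Ratios of counts reflect gene length too, so only their difference between genotypes is read here. Ratios of Fbn1 to Fbn2 and of Nid1 to Nid2 were not formed, since a library had 3 counts or fewer of one gene.

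**Figure D5:**
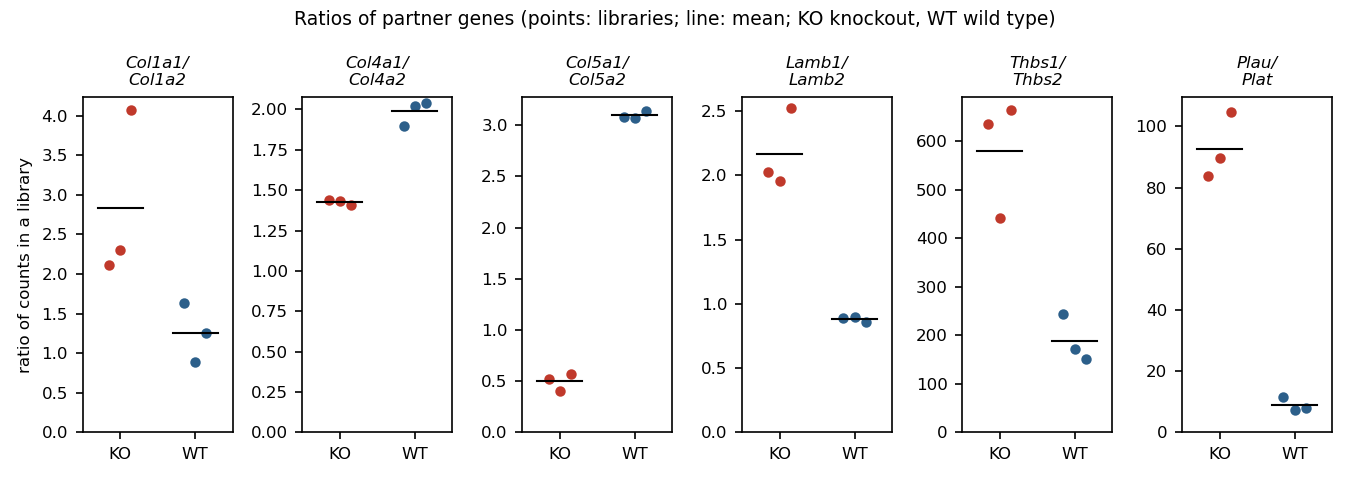
Ratio of the counts of partner genes in each library (points) with the group mean (line), knockout left and wild type right in each panel, on linear axes from 0. The groups do not overlap in any of the 6 panels; Col5a1 to Col5a2 is at most 0.569 in knockout and at least 3.07 in wild type libraries.

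Other matrix genes outside the 44 were counted by the same roles. Over all tested genes 24.8% were called higher and 23.7% lower, and no list here or below was tested against these shares. Of 16 other collagen genes tested, 6 rose, 3 fell and 7 were not called (median 0.10). The cartilage collagen gene Col9a3 rose to 12.4 ± 1.66 CPM in knockout cells, against 3.40 ± 0.302 CPM in wild type cells, and Col8a1, a network-forming collagen gene of vessels and cornea, rose by 1.47. Of 20 other basement membrane genes tested, 8 rose, 4 fell and 8 were not called (median 0.20). Npnt, which encodes nephronectin, an integrin ligand of follicle basement membranes, rose to 25.3 ± 1.61 CPM in knockout cells, against 6.62 ± 0.882 CPM in wild type cells.

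Of 12 tested genes on the other microfibril list, 6 rose, 4 fell and 2 were not called (median 0.35). The list took in Mfap1a (0.06, not called) and Mfap3 (0.18, called higher) by symbol, so the tally is not of microfibril proteins alone. Adamtsl4, which encodes a fibrillin-binding protein, rose by 1.99. Fbln5, which encodes an organiser of elastic fibres, rose by 1.28. Of 11 other matricellular genes tested, 6 rose, none fell and 5 were not called (median 0.76). Igfbp7 rose to 757 ± 36.7 CPM in knockout cells, against 352 ± 27.4 CPM in wild type cells, and Vcan, the gene of the hyaluronan-binding proteoglycan versican, rose to 47.5 ± 2.77 CPM in knockout cells, against 16.9 ± 2.81 CPM in wild type cells. Of 24 other genes of collagen folding and crosslinking tested, 12 rose, 3 fell and 9 were not called (median 0.33). Bmp1, which encodes the protease that trims procollagen, had 131, 134 and 137 CPM in knockout and 51.2, 48.9 and 49.1 CPM in wild type libraries, a rise of 1.43 (edgeR adjusted p = 1.49e-11). P4ha1, a prolyl hydroxylase gene induced by low oxygen, fell to 7.85 ± 1.27 CPM in knockout cells, against 19.3 ± 1.48 CPM in wild type cells.

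Members varied little between libraries of 1 genotype. The coefficient of variation of CPM over the 39 tested members had a median of 8.29% in knockout and 9.12% in wild type libraries. The widest spread in knockout libraries was that of Col1a2 (34.1%) and in wild type libraries that of Fbn1 (56.2%), both from low counts. Knockout replicate 6 was the highest knockout library for Fn1, Tnc, Thbs1, Plau, Postn, Fbn1, Col4a1, Col4a2 and Hspg2, and was the lowest for Ecm1. The groups stayed apart in each of these genes.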

How the data were processed

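The authors deposited 1 table of raw counts of reads per gene for 6 libraries of primary mouse keratinocytes, read as pairs of 150 bp, per the labels' protocols. FastQC, STAR, HTSeq and DESeq2 with the builds mm39 and GRCm39 were used, per the submitters' processing notes. Versions, annotation release and strand setting were not given in the sources used here, so antisense and overlapping genes cannot be told apart. Identifiers without a symbol held 0.369% to 0.546% of the counts and stayed in the fit. Nothing in the table was normalised.

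From the counts, 17659 of 55416 genes passed filterByExpr (minimum of 10 counts). They were tested with edgeR 4.0.16 (R 4.3.3) by quasi-likelihood with robust dispersion and TMM scaling, with genotype as the only factor, and adjusted over all of them by Benjamini-Hochberg. Standard errors are the log2 fold change over the square root of F. Counts of 2 libraries of 1 genotype differed beyond sampling noise (chi-square over its degrees of freedom, 19.7 to 46.9), so none was counted as a repeat. Exon lengths and overlaps came from GENCODE M21, of an older assembly. The fit was also run on simulated data in which few genes changed, as many up as down. That setting is unlike these data, so it does not test the scaling. Members and lists were chosen with earlier results of these data known. All members were named. Of each list of other matrix genes the 2 called genes with the smallest p were named, and of each marker list the 2 with the highest mean. 1 gene that this rule takes is not reported here. Any other gene was named after its values were seen. Adamtsl6 of the microfibril list had no identifier of that symbol. Alternatives were DESeq2 size factors, library totals, no filter, a mean of at least 1 CPM, DESeq2 1.42.0, limma voom (3.58.1), thinning to the smallest library and leaving out each library. Intervals of 2 SEs include the spread between libraries, and floors of 3 counts cover counting error only.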

Additional observations from a re-analysis of the deposited data

How the results depend on the processing

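Of the 39 tested members, 27 kept their direction and their side of the threshold under all alternatives run. Leaving out each library gave 22 to 24 members higher and 4 to 6 lower, and 13 to 14 higher and 2 lower past 1 log2 unit. With library totals 2 members were lower, 1 of them past 1 log2 unit, with the median of all genes shifted to 0.21. By role, library totals gave 2 fibrillar collagens and 3 microfibril genes higher, and 0 basement membrane, 0 wound matrix and 0 plasminogen activation genes lower. DESeq2 gave 1 interstitial collagen lower, and no filter gave 2 basement membrane genes lower. Leave-one-out ranges were 1 to 2 fibrillar collagens higher, 0 to 1 interstitial collagens lower, 0 to 1 basement membrane genes lower, 2 to 3 microfibril genes higher and 1 to 2 wound matrix genes lower.

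Signs turned with library totals in Col16a1 (0.11), Lamc1 (0.014), Eln (0.12) and Plaur (0.16), without knockout replicate 4 in Plaur (0.04), without knockout replicate 6 in Lox (-0.10), and without wild type replicate 1 in Plaur (0.11) or 3 in Lox (-0.05), so that leaving out each library gave -0.10 to 0.28 for Lox and -0.13 to 0.11 for Plaur; none of these was called. The cause was not tested. Ratios of partner genes kept their sign without any library, with log2 differences of -2.75 to -2.51 for Col5a1 over Col5a2 and 3.26 to 3.59 for Plau over Plat. No paired analysis was possible because knockout and wild type libraries share no replicate numbers. Counts of Col3a1, Nid2, Fbn2, Mfap2 and Mfap5 were too low for the main test, so no fold change is given for them.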
